A study of Mus musculus with 11 samples.

Results

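The replication-dependent core histone genes were taken as every gene whose symbol began with Hist1 to Hist4 followed by h2a, h2b, h3 or h4, without the symbols marked as pseudogenes. This gave 63 of the 49585 genes of the expression table, 20 for H2A, 18 for H2B, 12 for H3 and 13 for H4, and the genes of the linker histone H1 were not included. Of these, 50 lay in the Hist1 cluster on chromosome 13, 10 in Hist2 on chromosome 3, 2 in Hist3 and 1 in Hist4. Of the 63, 2 (Hist1h2aj and Hist1h2al) are annotated as pseudogenes although their symbols are not marked.

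The embryos were C57BL/6 mouse embryos made by injecting an oocyte with a round spermatid (ROSI) or with a sperm (ICSI), and RNA was sequenced from zygotes and from 2-cell embryos. There were 11 libraries, 2 of ROSI zygotes and 3 of each other group (zygotes after ICSI, and 2-cell embryos after ROSI or ICSI). Per the labels, ROSI embryos spent 1 to 2 h in CZB medium without calcium that held 5 mM strontium chloride, which activates the egg, before KSOM medium, and ICSI embryos were kept in KSOM, so the injected cell and the activation cannot be told apart. The number of embryos in a library, the collection times and separate cultures are not given, so each p-value below measures the spread between these libraries.

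Core histones package DNA into nucleosomes, in which a pair of H3 and H4 dimers is flanked by H2A and H2B dimers. Dividing cells make most of them in S phase from clustered genes without introns, whose mRNAs end in a short stem-loop in place of a poly(A) tail and are bound there by the stem-loop binding protein. Oocytes store histone mRNA and protein for the first cleavages, and the 2-cell stage is when the mouse embryonic genome becomes broadly active.

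The stem-loop is shown because it marks these mRNAs as a class. It was found in the annotated transcripts (GENCODE M21, mouse build mm10) of 40 of the 63 genes, as 6 different sequences of 16 bases, and most of the other 23 are annotated without the stretch that would hold it. The sequences are in the 5′ to 3′ direction, with the 4 loop bases in capitals.
H2A of 10 genes, H2B of 8 and H3 of 5, among them Hist1h2ac, Hist1h2bj and Hist1h3a: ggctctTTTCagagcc
H2B of 2 genes and H3 of 3, Hist1h2bb, Hist1h2bk, Hist1h3c, Hist1h3e and Hist1h3f: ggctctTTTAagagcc
Hist2h2ac: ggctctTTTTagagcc
H4 of 7 genes, among them Hist1h4c, Hist1h4d, Hist1h4h and Hist4h4: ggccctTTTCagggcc
Hist1h4i and Hist2h4: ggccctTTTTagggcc
Hist1h4b and Hist1h4j: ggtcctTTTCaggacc
The H2A, H2B and H3 loops shared 1 stem sequence, and the H4 loops had 2 others. Between the stem and the annotated end, 15 genes had over 300 bases more, Hist1h3f among them, so these annotated transcripts run beyond the processed histone mRNA.

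Promoters from RefSeq (build GRCm38.p6) matched 55 of the 63 genes, and the 250 bases before the annotated start are printed for 6 genes on which the results turn. They are Hist1h2ba with the testis and oocyte variant it encodes, the strongly rising Hist1h2ai and Hist2h2ac, and the most abundant gene Hist1h4c. The others are Hist1h3e and Hist1h2be, called lower in ROSI than in ICSI 2-cell embryos, though neither call held in every setting. Capitals mark, on either strand, the motif CCAAT (bound by the factor NF-Y), the TATA box motif TATAAA, and the octamer motif ATTTGCAT known from H2B promoters. No 2 different motifs overlapped in the 55 promoters.
Hist1h2ba (chr13:23934157-23934406, minus strand): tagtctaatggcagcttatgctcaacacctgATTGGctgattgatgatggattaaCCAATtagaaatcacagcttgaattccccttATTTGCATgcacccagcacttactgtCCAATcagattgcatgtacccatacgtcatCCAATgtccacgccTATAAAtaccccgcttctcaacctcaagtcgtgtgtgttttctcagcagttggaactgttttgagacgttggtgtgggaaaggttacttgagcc
Hist1h2ai (chr13:21716162-21716411, plus strand): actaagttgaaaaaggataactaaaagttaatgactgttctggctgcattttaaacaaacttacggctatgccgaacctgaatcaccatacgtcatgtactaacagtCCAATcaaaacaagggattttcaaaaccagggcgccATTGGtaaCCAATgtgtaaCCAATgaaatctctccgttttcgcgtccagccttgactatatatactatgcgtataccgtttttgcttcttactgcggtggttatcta
Hist2h2ac (chr3:96220881-96221130, minus strand): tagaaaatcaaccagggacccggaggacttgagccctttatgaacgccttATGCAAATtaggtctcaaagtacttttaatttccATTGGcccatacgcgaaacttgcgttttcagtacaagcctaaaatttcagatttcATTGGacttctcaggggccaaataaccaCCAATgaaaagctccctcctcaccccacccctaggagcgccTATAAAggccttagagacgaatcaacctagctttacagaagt
Hist1h4c (chr13:23698459-23698708, minus strand): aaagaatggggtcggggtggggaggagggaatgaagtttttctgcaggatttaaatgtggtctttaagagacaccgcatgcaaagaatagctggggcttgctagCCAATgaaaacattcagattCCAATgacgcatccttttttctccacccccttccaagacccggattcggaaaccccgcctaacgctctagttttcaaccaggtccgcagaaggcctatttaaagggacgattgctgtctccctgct
Hist1h3e (chr13:23562386-23562635, minus strand): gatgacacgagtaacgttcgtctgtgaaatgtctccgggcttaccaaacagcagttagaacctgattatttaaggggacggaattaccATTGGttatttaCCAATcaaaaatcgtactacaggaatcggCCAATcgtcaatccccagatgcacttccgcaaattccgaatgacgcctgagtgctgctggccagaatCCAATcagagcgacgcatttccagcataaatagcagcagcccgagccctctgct
Hist1h2be (chr13:23621095-23621344, minus strand): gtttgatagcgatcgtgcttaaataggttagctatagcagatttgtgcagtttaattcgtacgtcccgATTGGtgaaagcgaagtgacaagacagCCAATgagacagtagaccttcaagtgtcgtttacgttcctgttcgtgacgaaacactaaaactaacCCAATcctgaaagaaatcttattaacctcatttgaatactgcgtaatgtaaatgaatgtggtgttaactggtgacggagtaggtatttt
The window of Hist1h2ba overlaps that of Hist1h2aa, which is read in the other direction (chr13:23934187-23934436, plus strand). Windows of other H2A and H2B neighbours read in opposite directions overlap as well, so 1 site can count for both genes. The octamer of Hist1h2ae is that of Hist1h2bg, and the octamer of Hist1h2ah is that of Hist1h2bk. CCAAT was found in 80.0% of the 55 promoters and in 33.8% of all 32851 promoters of the same length. It stood in all 17 H2A and all 16 H2B promoters, in 8 of 10 for H3 and in 3 of 12 for H4. TATAAA was found in 45.5% against 12.4% of all promoters. ATTTGCAT was found in 23.6% against 1.60%, in 7 H2A and 6 H2B promoters and in none of H3 or H4. A match describes the letters of these windows and is not evidence of a bound factor.

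Values are TPM as deposited, a level per transcript length that is scaled to a total of 1000000 in each library. A gene entered the tests if 2 or more libraries had 1 TPM or more, which 55 of the 63 core histone genes and 21938 genes in all passed, and differences were estimated with limma on log2(TPM + 1). That scale understates the fold of low genes, and each difference is given with its standard error (SE) and a p-value adjusted by Benjamini-Hochberg over all tested genes, with calls at 0.05. Since TPM are shares of bulk RNA, fewer cells with a transcript and less of it per cell cannot be told apart. Protein-coding genes held 65.9% to 71.5% of the TPM in zygotes and 44.6% to 51.4% in 2-cell embryos, so changes with stage are relative to a total of different makeup. Depth, recovered from the steps of the TPM values, was 8.48 M reads (M, 1000000) in ICSI 2-cell library 1 and 20.5 to 85.9 M reads in the others. Among zygotes, ROSI library 1 and ICSI library 1 stood apart with 0.611% and 0.572% of their TPM in small nuclear and nucleolar RNA, against 1.64% to 2.58% in the other 3. All 10 oocyte markers averaged over 1 TPM in every group.

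Many core histone genes are near copies of each other, so their reads may be divided or dropped by the counting. Of the 63, 34 shared over 50% of their 50-base words with other genes of the annotation, with a median of 54.1%. In all, 5 genes, Hist2h2aa1, Hist2h2aa2, Hist2h2bb, Hist2h3b and Hist2h3c1, were listed at 0 in every library. Hist2h2aa2 and Hist2h3c1 shared 100% of their words with other genes, Hist2h2aa1 89.4%, Hist2h3b 79.7% and Hist2h2bb 53.6%, mostly with the overlapping gene models Gm20634 and Gm42743. These models were themselves low, Gm20634 at up to 0.0153 TPM and Gm42743 at up to 0.827 TPM. Another 3 core histone genes were under 1 TPM in every library, Hist1h2br at up to 0.791 TPM, Hist2h2be at up to 0.991 TPM and Hist3h2a at up to 0.615 TPM.

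In TPM as deposited, the sums over the 63 core histone genes overlapped between ROSI and ICSI zygotes and were higher in 2-cell embryos. They were lower in ROSI than in ICSI 2-cell embryos. The sums were 7806 and 7537 TPM in the ROSI zygotes and 8155, 7308 and 7535 TPM in the ICSI zygotes. In 2-cell embryos they were 13134, 13012 and 12473 TPM after ROSI and 16913, 15481 and 14469 TPM after ICSI. Every ROSI 2-cell library lay below every ICSI 2-cell library, and the ratio of the means was 0.824. From zygote to 2-cell embryo the mean sum in TPM as deposited was 2.04 times as high after ICSI and 1.68 times after ROSI. These sums are a description, without a test.

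Of the 4 types, H2A had the highest ratio of 2-cell to zygote sums. H2A sums were 1179 and 883 TPM in the ROSI zygotes, 1330.2, 1222 and 1320.2 in the ICSI zygotes, 2819.5, 3031 and 3068 in the ROSI 2-cell embryos and 3792, 3724 and 3279 in the ICSI 2-cell embryos. The 2-cell mean of H2A was 2.79 times the zygote mean after ICSI and 2.88 times after ROSI, against 2.31 and 1.77 for H3, 1.78 and 1.37 for H2B, and 1.75 and 1.46 for H4. H2A thus took 13.4% (SD 2.40, n = 2) of core histone TPM in ROSI zygotes and 16.9% (SD 0.615, n = 3) in ICSI zygotes, and 23.1% (SD 1.57, n = 3) and 23.0% (SD 0.880, n = 3) in the 2-cell embryos. The share of H2B went from 36.2% and 32.5% to 29.5% and 28.5%, and that of H4 from 31.1% and 32.4% to 27.0% and 27.8%, in ROSI and ICSI embryos. In 2-cell embryos the ROSI to ICSI ratio was 0.826 for H2A, 0.857 for H2B, 0.812 for H3 and 0.798 for H4. In TPM as deposited the libraries overlapped in no type, and overlap by type was not taken on the protein-coding scale.

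**Figure D1:**
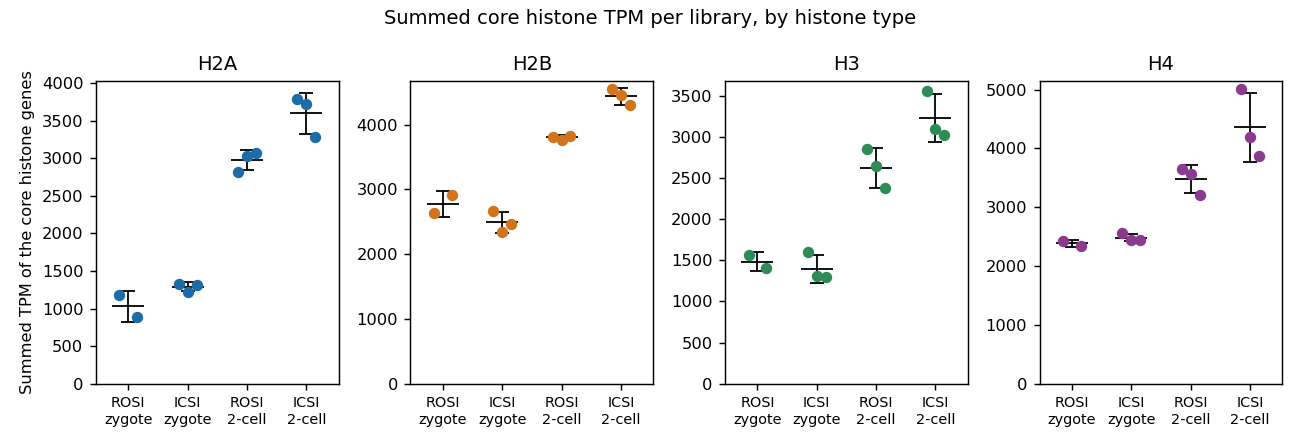
Summed TPM of the core histone genes of each type (vertical axis, a scale of its own per panel) in each group, with 1 point per library, the mean as a line and the SD as a bar. In every panel the 3 ROSI 2-cell libraries lie under the 3 ICSI 2-cell libraries, and both lie over the zygotes.

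A few genes made up most of each type, and Hist1h4c on chromosome 13 (chr13:23697635-23698454, minus strand, a single exon) was the most abundant core histone gene. It measured 1688 and 1521 TPM in the ROSI zygotes, 1865, 1733 and 1745 in the ICSI zygotes, 2186, 2158 and 1866 in the ROSI 2-cell embryos and 3186, 2700.0 and 2330.3 in the ICSI 2-cell embryos. Its 2-cell values after ROSI lay under all of those after ICSI, and it held 59.5% to 71.7% of the H4 TPM by group. Hist1h4d averaged 257 TPM (SD 10.8, n = 3) in ICSI zygotes and 703 TPM (SD 101, n = 3) in ICSI 2-cell embryos, and Hist1h4h 129.9 TPM (SD 2.89, n = 3) and 255 TPM (SD 15.6, n = 3). All H4 genes encode the same protein.

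Among H3 genes, Hist1h3f, which encodes H3.2, held 61.0% to 76.8% of the TPM by group. It measured 1208 and 1069 TPM in the ROSI zygotes, 1202, 972 and 942 in the ICSI zygotes, 1801, 1677 and 1443 in the ROSI 2-cell embryos and 2153, 1877 and 1884 in the ICSI 2-cell embryos. Next in mean level over all libraries were Hist1h3g with 158 TPM (SD 33.2, n = 3) in ICSI zygotes and Hist1h3a with 126 TPM (SD 1.86, n = 3), both genes of H3.1, whose ICSI zygote values overlapped. Hist1h3e followed, and the 6 other H3 genes above 0 were each at or under 18.2 TPM in every zygote library.

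Among H2B genes the order by mean level was Hist1h2bk, Hist1h2bj and Hist1h2ba. Hist1h2bk measured 929.9 and 934 TPM in the ROSI zygotes, 872, 723 and 777 in the ICSI zygotes, 1243, 1258 and 1337 in the ROSI 2-cell embryos and 1521, 1398 and 1271 in the ICSI 2-cell embryos. Hist1h2bj averaged 559 TPM (SD 39.0, n = 3) in ICSI zygotes and 1021 TPM (SD 62.1, n = 3) in ICSI 2-cell embryos. Hist1h2ba encodes TH2B, the H2B variant of testis and oocyte, and in ICSI zygotes its 656 TPM (SD 23.1, n = 3) lay above every value of Hist1h2bj.

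For H2A the leading gene changed with stage. In zygotes it was Hist1h2aa, which encodes TH2A, the H2A partner of TH2B, at 723 TPM (SD 83.8, n = 3) after ICSI, and in 2-cell embryos it was Hist1h2ah, at 907 TPM (SD 37.9, n = 3) after ICSI. Hist1h2ah measured 359 and 186 TPM in the ROSI zygotes, 388, 295 and 305 in the ICSI zygotes, 877, 914 and 908 in the ROSI 2-cell embryos and 932, 926 and 864 in the ICSI 2-cell embryos. Its zygote values went from 186 to 388 TPM and overlapped between ROSI and ICSI. Hist1h2an, the next H2A gene, averaged 21.2 TPM (SD 5.67, n = 3) in ICSI zygotes and 451 TPM (SD 51.7, n = 3) in ICSI 2-cell embryos. Levels of different genes depend on annotated lengths, which for some genes cover the coding part and for others run past the stem-loop.

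**Figure D2:**
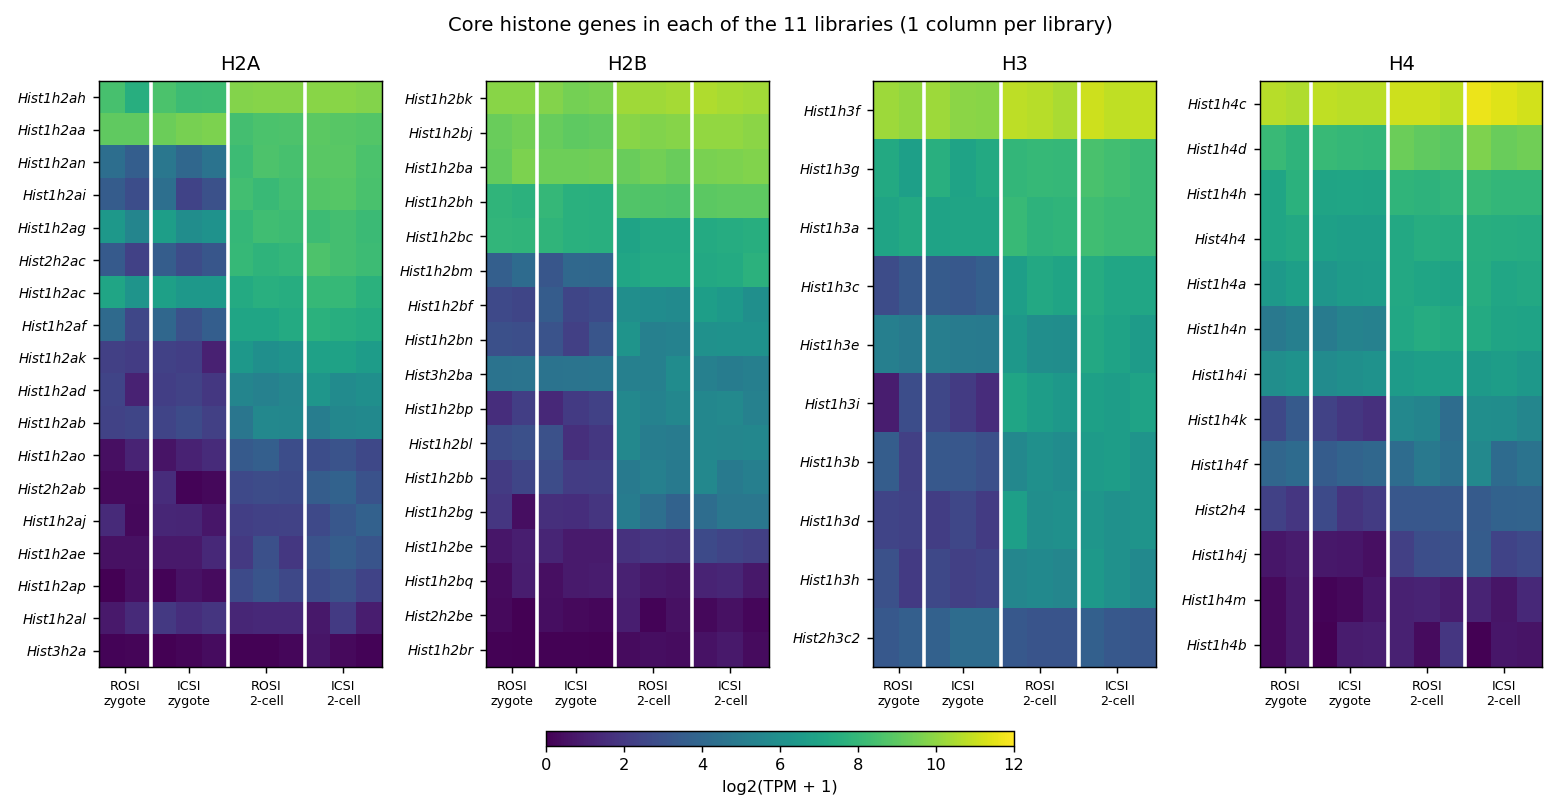
The 58 core histone genes above 0 in any library, by type and mean level, with 1 column per library and colour for log2(TPM + 1). The upper rows of each type are bright in all libraries, while most of the middle rows are dark in the zygotes and bright in the 2-cell embryos.

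Between zygote and 2-cell embryo, most core histone genes rose. After ICSI, 49 of 55 tested genes rose, against 33.0% of all genes tested, and 2 fell, against 35.0%. After ROSI, 45 of 55 rose, against 35.6% of all genes, and 2 fell, against 32.3%. The median log2 difference was 1.88 after ICSI and 1.78 after ROSI, where it was 0.00 and 0.19 over all genes tested. The libraries of the stages did not overlap in 48 higher genes after ICSI, against 34.9% of all genes tested, and in 3 lower ones, against 37.3%. After ROSI these were 47, against 40.2%, and 2, against 35.9%. By type, 15 of 17 H2A, 13 of 15 H2B, 9 of 10 H3 and 12 of 13 H4 genes rose after ICSI, and 15, 12, 9 and 9 after ROSI. Of the 55, 8 had under 2 zygote libraries at 1 TPM and entered the tests through the 2-cell embryos, which favours a rise. Of the other 47, 43 rose after ICSI and 40 after ROSI, against 24.1% and 26.2% of the 15718 genes that passed within the zygotes, a count added after the data were seen.

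The largest rises were in genes with few transcripts in the zygote. Hist1h2ai, an H2A gene at chr13:21716422-21716814 on the plus strand whose promoter is printed above, measured 10.4 and 6.25 TPM in the ROSI zygotes, 19.6, 4.36 and 6.78 in the ICSI zygotes, 328, 279 and 325 in the ROSI 2-cell embryos and 446, 456 and 371 in the ICSI 2-cell embryos. Its stage difference was 5.48 (SE 0.39, adjusted p = 3.56e-07) by limma after ICSI and 5.10 (SE 0.44, adjusted p = 1.72e-06) after ROSI. All 2-cell values lay far above all zygote values, and 90.1% of its words were shared with other genes, so part of its reads may belong to them.

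Hist2h2ac, the H2A gene with a loop of 4 T and a TATAAA close to its start, followed. It measured 9.57 and 4.0 TPM in the ROSI zygotes, 10.7, 5.98 and 8.16 in the ICSI zygotes, 264, 221 and 245 in the ROSI 2-cell embryos and 400.1, 341 and 298 in the ICSI 2-cell embryos. It rose by 5.25 (SE 0.26, adjusted p = 2.14e-08) after ICSI and by 5.07 (SE 0.29, adjusted p = 7.58e-08) after ROSI in limma. The same rule of size named Hist1h2ak (H2A, 4.91 and 3.98 on the log2 scale after ICSI and ROSI), Hist1h2an (4.38 and 4.50) and Hist1h3i, an H3.1 gene (4.77 and 4.81). It also named Hist1h2af after ICSI (4.02) and Hist1h3c after ROSI (3.94). Of these 7 genes, 5 encode H2A and 2 encode H3. The ICSI and ROSI stage comparisons share no library.

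By level in the ICSI zygote, the 14 genes over 100 TPM held 92.3% of the zygote sum and 75.4% of the ICSI 2-cell sum, with a median 2-cell to zygote ratio of 1.86 (0.655 to 2.76). The 27 genes between 1 and 20 TPM went from 1.99% of the zygote sum to 14.6% of the 2-cell sum, with a median ratio of 11.5 and up to 41.9. After ROSI the median ratios of the same gene groups were 1.37 and 9.53. The groups were formed on the ICSI zygote values, which also enter the ICSI ratio, so the ICSI figures are a description. The ratios reached higher between 1 and 20 TPM than over 100 TPM. After ICSI the 8 genes between 20 and 100 TPM had a median ratio of 3.17 and up to 21.3. The 6 genes under 1 TPM, which entered the tests through the 2-cell embryos, had a median of 7.45 and up to 19.4. So the ratios did not go on rising to the scarcest genes.

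**Figure D3:**
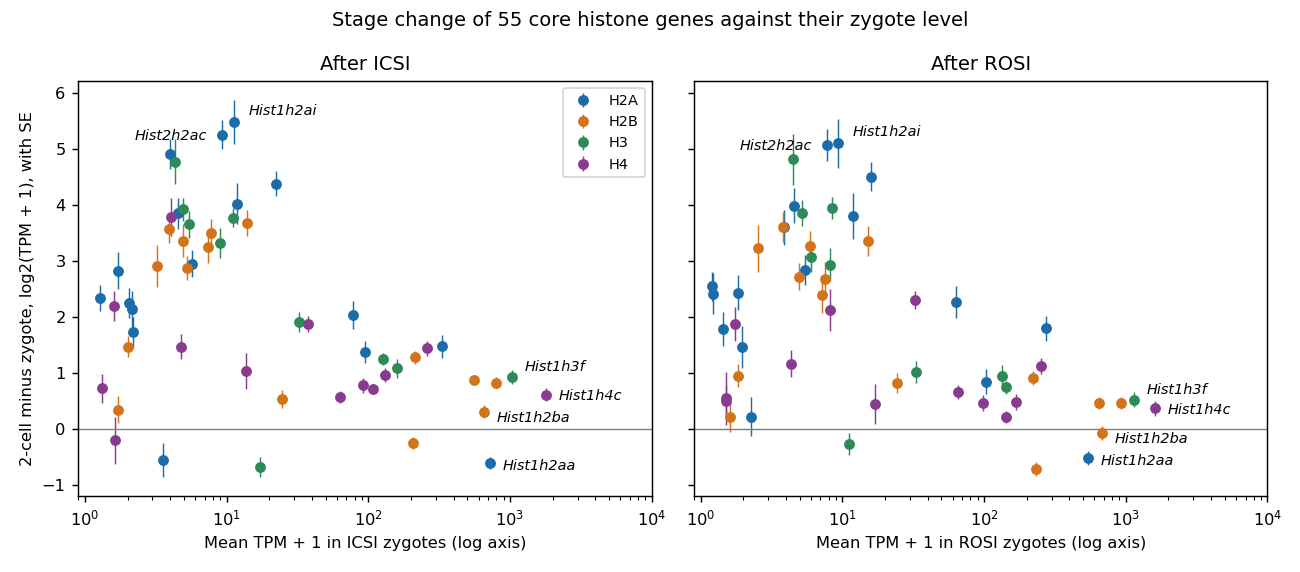
Log2 difference between 2-cell embryos and zygotes (vertical axis, with SE) against the mean zygote level (horizontal log axis) for the 55 tested genes, after ICSI and after ROSI, coloured by type. Differences reach 5.48 for genes around 10 TPM in the zygote and stay below 2 for genes over 100 TPM.

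Hist1h2aa was 1 of the few genes that fell. Hist1h2aa measured 536 and 541 TPM in the ROSI zygotes, 633, 734 and 799.8 in the ICSI zygotes, 335, 389.8 and 405 in the ROSI 2-cell embryos and 504, 474 and 442 in the ICSI 2-cell embryos. It fell after ICSI, -0.60 (SE 0.11, adjusted p = 0.000478), and after ROSI, -0.52 (SE 0.12, adjusted p = 0.00285), by limma, and the stages did not overlap. With TPM of protein-coding genes alone, brought to 1 total, the differences were -0.07 (adjusted p = 0.532) and -0.04 (adjusted p = 0.739), and no fall was called on that scale. Its divergent partner Hist1h2ba, 305 bases away, measured 572 and 783 TPM in the ROSI zygotes, 644, 642 and 683 in the ICSI zygotes, 618, 687 and 615 in the ROSI 2-cell embryos and 778, 803 and 858 in the ICSI 2-cell embryos, a difference of 0.31 (SE 0.11, adjusted p = 0.0325) after ICSI and -0.07 (SE 0.13, adjusted p = 0.657) after ROSI. Hist1h2aa shares 2.35% of its words with other genes.

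Of the other genes that fell, Hist2h3c2 (H3.2) measured 8.78 and 11.4 TPM in the ROSI zygotes, 12.2, 18.2 and 17.9 in the ICSI zygotes, 9.0, 7.76 and 7.62 in the ROSI 2-cell embryos and 11.6, 8.91 and 8.25 in the ICSI 2-cell embryos. It fell after ICSI, with a difference of -0.68 (SE 0.18, adjusted p = 0.0059), a call that also ended with protein-coding TPM alone (-0.19, adjusted p = 0.379). After ROSI its difference was -0.27 (SE 0.20, adjusted p = 0.249). Hist1h2bc, an H2B gene, fell after ROSI, with a difference of -0.71 (SE 0.12, adjusted p = 0.000293), and after ICSI its difference was -0.25 (SE 0.11, adjusted p = 0.0588).

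The other clusters differed by gene. In Hist2 the summed TPM was 13.0 times as high in 2-cell embryos as in zygotes after ICSI and 12.9 times after ROSI, and Hist2h2ac made up 91.6% and 91.4% of the 2-cell sum. Without Hist2h2ac the log2 ratio of the Hist2 sums was 0.61 after ICSI and 0.73 after ROSI. Hist2h2ab (H2A) measured 0.224 and 0.231 TPM in the ROSI zygotes, 1.83, 0.0898 and 0.203 in the ICSI zygotes, 5.22, 5.94 and 5.47 in the ROSI 2-cell embryos and 10.7, 12.6 and 7.25 in the ICSI 2-cell embryos, with differences of 2.82 and 2.41 after ICSI and ROSI. It entered the tests through its 2-cell values, so that filter favoured a rise. Hist2h4 (H4) rose by 1.47 and 1.16. In Hist3, Hist3h2ba (H2B) measured 23.0 and 23.6 TPM in the ROSI zygotes, 22.8, 23.6 and 24.6 in the ICSI zygotes, 36.6, 36.0 and 55.7 in the ROSI 2-cell embryos and 37.0, 31.5 and 35.8 in the ICSI 2-cell embryos, and rose by 0.53 (SE 0.15, adjusted p = 0.00954) and 0.82 (SE 0.17, adjusted p = 0.00142) after ICSI and ROSI. Hist4h4, the only gene of its cluster, rose after ICSI by 0.72 (SE 0.09, adjusted p = 4.19e-05), and its difference after ROSI was 0.21 (SE 0.10, adjusted p = 0.0883).

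The Hist1 genes form 2 blocks on chromosome 13, 23 genes between 21.7 and 22.0 Mb and 26 between 23.5 and 23.9 Mb. In the block at 21.7 Mb the summed TPM was 2.82 times as high at the 2-cell stage after ICSI and 2.33 times after ROSI, and in the block at 23.5 Mb 1.72 and 1.4 times. For H2A alone the ratios were 5.02 and 5.34 at 21.7 Mb and 1.22 and 1.18 at 23.5 Mb, where Hist1h2aa held most of the zygote sum. The H4 genes at 21.7 Mb had ratios of 2.84 and 2.91, and those at 23.5 Mb, with Hist1h4c, 1.71 and 1.41. The difference between the blocks was not tested.

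In all, 14 pairs of core histone genes stood head to head within 1000 bases, mostly an H2A with an H2B gene. Partners often differed in level and in stage change. In ICSI zygotes Hist1h2ag averaged 77.1 TPM (SD 25.0, n = 3) and its partner Hist1h2bj 559 TPM (SD 39.0, n = 3), with 269 bases between them, and their stage differences after ICSI were 2.04 and 0.87. Hist1h2ac differed by 1.37 and its partner Hist1h2bc by -0.25. Hist1h2bl, the H2B gene 278 bases from Hist1h2ai, rose by 3.35 where Hist1h2ai rose by 5.48. In the pair of Hist1h2bf and Hist1h2ad both rose, by 3.50 and 3.84. These pairs were chosen after their values were seen.

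Between ROSI and ICSI 2-cell embryos, core histone genes mostly had lower values after ROSI, while few single genes passed the test. Of 55 genes, 2 were lower, against 4.58% of all genes tested, and 0 were higher, against 4.93%. An unadjusted limma p under 0.05 was found for 17, not read as an excess because the share of all genes was not taken. The log2 difference was below 0 for 46 of 55, with a median of -0.28, against 0.04 over all genes. In 25 of 55 every ROSI library lay under every ICSI library, against 11.8% of all genes tested, and in 0 every ROSI library lay above, against 15.4%. With protein-coding TPM alone, 18 lay under, against 11.9% of the 21938 genes of the main test, and 1 above, against 19.3%. With median-ratio scaling 29 lay under, against 19.3% of the same 21938 genes, and 0 above, against 12.3%. Both settings were added for this count after the data were seen.

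Hist1h3e, an H3.2 gene at chr13:23561534-23562369 on the minus strand, had the smallest p. It measured 82.6, 59.6 and 58.5 TPM in the ROSI and 150.3, 123 and 93.9 in the ICSI 2-cell embryos, and 34.8 and 29.6 TPM in the ROSI and 33.6, 30.8 and 29.8 in the ICSI zygotes. The 2-cell groups did not overlap, and the difference was -0.85 (SE 0.18, adjusted p = 0.0183) by limma. The call ended without ROSI 2-cell library 2 (adjusted p = 0.0629), without ICSI 2-cell library 1 or 2 (0.054 and 0.054), and with the 2-cell groups fitted alone (0.0671).

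Hist1h2be (H2B) measured 2.27, 2.78 and 2.5 TPM in the ROSI and 5.49, 4.42 and 3.77 in the ICSI 2-cell embryos, without overlap, a difference of -0.65 (SE 0.18, adjusted p = 0.0474) by limma. Its annotated exons sum to 4446 bases and share words with the H1 gene Hist1h1e, so the origin of its reads is uncertain. The call ended in most alternative settings, 9 libraries left out 1 at a time among them (adjusted p up to 0.130). Hist1h2ae (H2A) measured 3.03, 6.62 and 2.9 TPM in the ROSI and 7.46, 10.7 and 7.64 in the ICSI 2-cell embryos, a difference of -0.95 (SE 0.27, adjusted p = 0.0548) that did not pass. It passed with a pseudocount of 5 (adjusted p = 0.0355 by limma), a filter of 5 TPM (0.0468) and median-ratio scaling (0.0270). It also passed with protein-coding TPM alone (0.0215) and without ROSI 2-cell library 2 (0.0217), while its adjusted p reached 0.151 in other settings. The 3 with the smallest p among higher values after ROSI were Hist1h2ao (0.45, adjusted p = 0.336), Hist1h4b (0.67, 0.34) and Hist3h2ba (0.27, 0.297), and none passed. Without ROSI 2-cell library 3 the differences were 0.28 for Hist1h4b and 0.06 for Hist3h2ba, and without library 2 they were 1.07 for Hist1h4b and 0.28 for Hist1h2ao.

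By type, the ROSI libraries lay under all ICSI libraries in 10 of 17 H2A, 6 of 15 H2B, 6 of 10 H3 and 3 of 13 H4 genes, against 11.8% of all genes tested. The median log2 differences were -0.39, -0.24, -0.30 and -0.17. Among the most abundant genes this held for Hist1h4c, -0.40 (SE 0.12, adjusted p = 0.0663), and Hist1h3f, -0.27 (SE 0.12, adjusted p = 0.197), by limma. TH2A and TH2B were both lower in every ROSI than in every ICSI library, with differences of -0.33 (SE 0.11, adjusted p = 0.0805) for Hist1h2aa and -0.35 (SE 0.11, adjusted p = 0.0816) for Hist1h2ba that did not pass. Hist1h2ah, the leading H2A gene of this stage, measured 877, 914 and 908 TPM in the ROSI and 932, 926 and 864 in the ICSI 2-cell embryos, which overlap, a difference of -0.01 (SE 0.20, adjusted p = 0.984).

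By position, 17 of 26 tested genes at 23.5 Mb of chromosome 13 had ROSI below all ICSI libraries, and 5 of 22 at 21.7 Mb, against 11.8% of all genes tested, and the difference between the blocks was not tested. The ROSI to ICSI ratio of the sums was 0.788 and 0.89, and it was 0.704 for Hist2, where 3 of 4 tested genes had no overlap. At 21.7 Mb the 5 H4 genes summed to 294, 327 and 287 TPM after ROSI and 321, 291 and 257 TPM after ICSI, which overlap. Hist3 and Hist4 sums overlapped as well.

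Other measures moved with this comparison. The 10 markers of the 2-cell embryo, such as Zscan4c and Zfp352, summed to 400.1 to 533 TPM in ROSI and 726 to 773 TPM in ICSI 2-cell embryos, and 7 of 10 were lower in limma. The 10 oocyte markers summed to 912 to 1113 TPM and 1479 to 1484 TPM, and 5 were lower. The 10 markers of haploid male germ cells summed to 21.6 to 43.6 TPM and 1.36 to 4.02 TPM, and 4 of 8 tested were higher. None of these markers was at 0 in all libraries, and their part in the core histone difference was not tested.

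**Figure D4:**
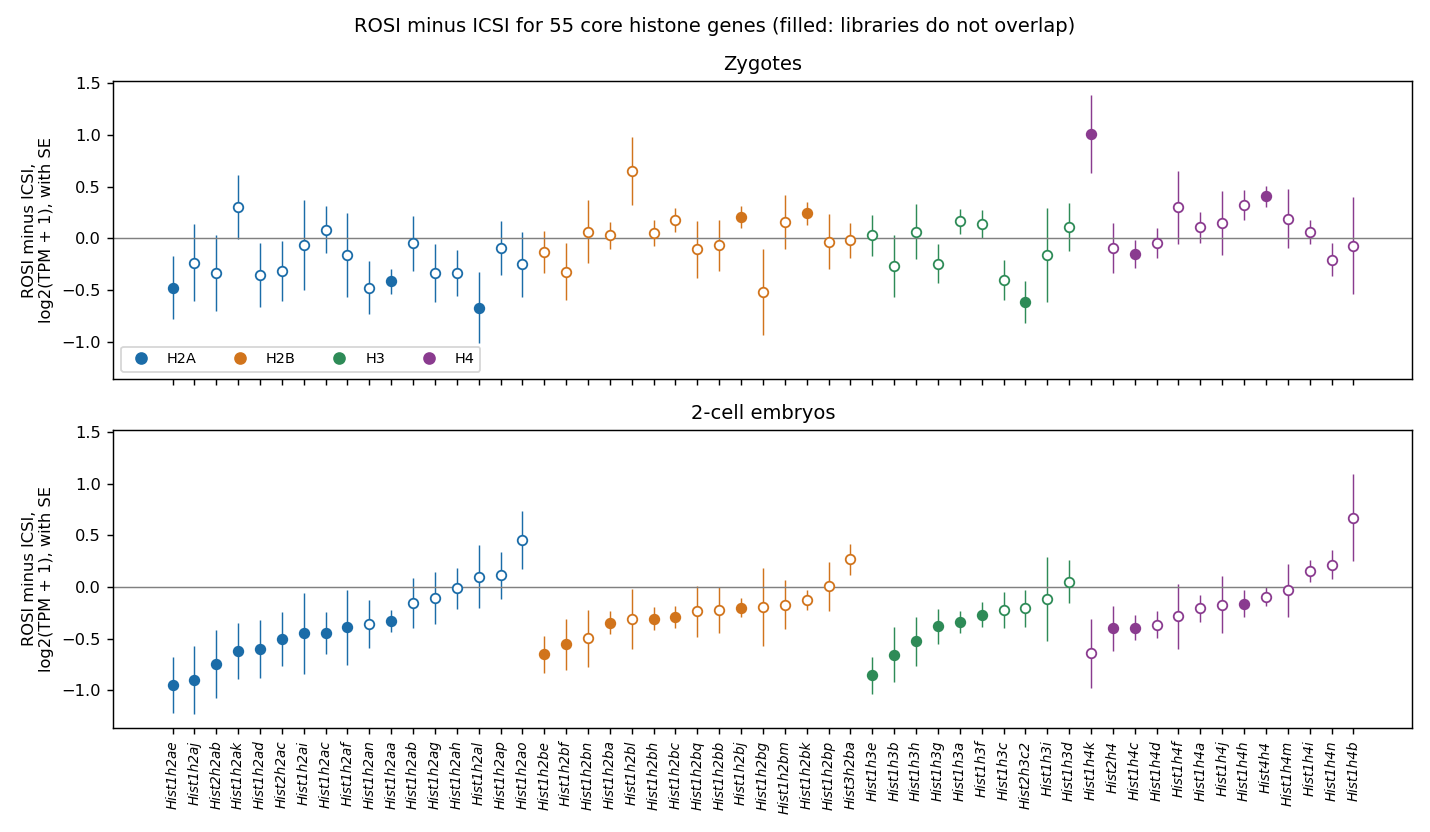
ROSI minus ICSI on the log2(TPM + 1) scale with SE for the 55 tested genes, in zygotes (top) and 2-cell embryos (bottom), grouped by type and ordered by the 2-cell difference. Filled points mark genes whose libraries do not overlap, 9 in zygotes and 25 in 2-cell embryos, the latter all below 0.

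In zygotes no core histone gene passed the limma test between ROSI and ICSI. There were 0 higher, against 0.114% of all genes tested, and 0 lower, against 0.0319%. At an unadjusted p under 0.05 there were 6 of 55, and the share of all genes at that threshold was not taken. The median difference was -0.07, against -0.06 over all genes. All ROSI libraries lay above all ICSI libraries in 4 genes, against 6.97% of all genes, and below in 5, against 19.4%.

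Higher values with the smallest p were those of 3 H4 genes. Hist4h4 measured 134 and 151 TPM in the ROSI and 113, 105 and 103 in the ICSI zygotes, without overlap, a difference of 0.41 (SE 0.10, adjusted p = 0.232), which passed with protein-coding TPM alone (0.50, adjusted p = 0.0337). Hist1h4k measured 5.11 and 9.41 TPM in the ROSI and 4.1, 2.81 and 2.17 in the ICSI zygotes, a difference of 1.01 (SE 0.38, adjusted p = 0.606), and Hist1h4h 133 and 199 TPM in the ROSI and 128, 133 and 128 in the ICSI zygotes, 0.32 (SE 0.15, adjusted p = 0.783). Without ROSI zygote library 2 the differences were 0.63 for Hist1h4k and 0.03 for Hist1h4h, and without library 1 that of Hist1h4h was 0.61. Lower values were those of Hist1h2aa, -0.42 (SE 0.12, adjusted p = 0.34), Hist2h3c2, -0.62 (SE 0.20, adjusted p = 0.453), and Hist1h3c, -0.40 (SE 0.20, adjusted p = 0.846), all by limma. That of Hist1h3c was -0.13 without ROSI zygote library 1 and -0.67 without library 2. Haploid germ cell markers summed to 54.7 to 96.6 TPM in ROSI and 19.4 to 26.2 TPM in ICSI zygotes, 3 of 8 tested were higher in limma, and their part in these values was not tested.

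H2A was the type with most zygote values below 0, in 15 of 17 genes with a median of -0.32, against -0.07 for all 55. Its sums were 1179 and 883 TPM after ROSI and 1330.2, 1222 and 1320.2 TPM after ICSI. Between the 2 zygote libraries with little small nuclear RNA, 1 of each kind, the median H2A difference of ROSI minus ICSI was -0.14, and among the other 3 it was -0.50. H2A genes also differed between the library kinds, with a median of 0.52 higher in the former (11 of 17 genes higher), and the part of this in the ROSI difference was not tested. The 10 oocyte markers summed to 5306 and 6046 TPM in the ROSI and 6534 to 7636 TPM in the ICSI zygotes, without overlap, with 0 of 10 passing in limma, and their part was not tested either.

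The stage change after ROSI was not shown to differ from that after ICSI for any gene. In limma's difference of the changes, 0 of 55 were higher, against 0.0137% of all genes, and 0 lower, against 0.00456%. At an unadjusted p under 0.05 there were 9, and the share of all genes at that threshold was not taken. The median was -0.31, against 0.10 over all genes, and 39 of 55 were below 0. The smallest p among lower values were those of Hist4h4, -0.50 (SE 0.14, adjusted p = 0.144), Hist1h3e, -0.89 (SE 0.27, adjusted p = 0.17), and Hist1h4k, -1.66 (SE 0.51, adjusted p = 0.172). Hist4h4 passed with median-ratio scaling (-0.69, adjusted p = 0.0377) and with protein-coding TPM alone (-0.56, adjusted p = 0.0391). Among higher values they were those of Hist1h4n, 0.42 (SE 0.22, adjusted p = 0.388), Hist1h2ao, 0.70 (SE 0.42, adjusted p = 0.46), and Hist1h2al, 0.77 (SE 0.46, adjusted p = 0.46). Without ROSI zygote library 1 these were 0.25, 0.36 and 0.47, and without ICSI 2-cell library 2 that of Hist1h2al was 1.16. This comparison uses the same libraries as those above.

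Genes that make and handle histone mRNA were compared between ROSI and ICSI in 4 lists. In zygotes 0 of 72 tested genes passed in limma, with 7 at an unadjusted p under 0.05. In 2-cell embryos 21 of the 72 had an unadjusted p under 0.05. Neither count is read as an excess, since the share of all genes at that threshold was not taken. With adjusted p, the shares called over all genes tested in 2-cell embryos were 4.93% higher and 4.58% lower. Of 14 tested genes of histone gene transcription 1 was higher and 1 lower after ROSI. Cdk2, the kinase that with cyclin E activates the histone coactivator Npat, measured 48.9, 56.0 and 48.4 TPM in the ROSI and 29.2, 37.9 and 38.3 in the ICSI 2-cell embryos, 0.53 (SE 0.13, adjusted p = 0.0305). Pou2f1, which binds the octamer, measured 3.98, 3.34 and 5.15 TPM in the ROSI and 6.14, 7.85 and 7.03 in the ICSI 2-cell embryos, -0.64 (SE 0.15, adjusted p = 0.0238). Of 21 genes of 3′ end processing 1 was higher, Cpsf3, the endonuclease (0.46 (SE 0.13, adjusted p = 0.0491)), and 1 lower, Lsm11 of the U7 particle, at 2.13, 2.61 and 2.9 TPM in the ROSI and 4.05, 4.82 and 4.02 in the ICSI 2-cell embryos (-0.58 (SE 0.13, adjusted p = 0.0229)). Of 17 genes of histone mRNA translation and decay 2 were higher, Lsm5 (1.20) and Zcchc11 (0.64), and none lower.

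Of 20 genes of S phase, 4 were lower in ROSI 2-cell embryos and 1 higher. Mcm4, a subunit of the replicative helicase, measured 18.8, 20.6 and 27.5 TPM in the ROSI and 56.4, 58.9 and 57.5 in the ICSI 2-cell embryos, without overlap, a difference of -1.35 (SE 0.13, adjusted p = 0.00256) by limma. Mcm3 and Mcm5, of the same helicase, differed by -0.65 (SE 0.09, adjusted p = 0.00425) and -0.60 (SE 0.11, adjusted p = 0.0121), and Rrm1, a subunit of ribonucleotide reductase, by 0.70 (SE 0.14, adjusted p = 0.0153).

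With stage, these genes went both ways. Over all genes tested 33.0% rose and 35.0% fell after ICSI, and 35.6% and 32.3% after ROSI. After ICSI 8 of 14 transcription genes rose and 6 fell, 3 of 21 processing genes rose and 12 fell, 4 of 17 decay genes rose and 10 fell, and 3 of 20 S phase genes rose and 13 fell, and after ROSI the counts were 8 and 5, 5 and 13, 5 and 9, and 4 and 12. Slbp, the stem-loop binding protein, measured 917 and 1012 TPM in the ROSI zygotes, 792, 911 and 938 in the ICSI zygotes, 90.2, 110.3 and 132 in the ROSI 2-cell embryos and 95.1, 122 and 124 in the ICSI 2-cell embryos, and fell, with differences of -2.95 (SE 0.15, adjusted p = 2.43e-08) and -3.13 (SE 0.17, adjusted p = 4.36e-08) after ICSI and ROSI in limma. Ccne1, cyclin E1, averaged 8.34 TPM (SD 1.15, n = 3) in ICSI zygotes and 397 TPM (SD 66.5, n = 3) in ICSI 2-cell embryos, a rise of 5.41 (SE 0.14, adjusted p = 3.85e-10). Nfya, a subunit of the factor that binds CCAAT, fell, with a difference of -1.89 (SE 0.08, adjusted p = 6.63e-09) after ICSI. Coil, which encodes coilin of Cajal bodies, rose by 1.90 (SE 0.10, adjusted p = 2.70e-08), and Ncbp1 of the cap-binding complex by 4.68 (SE 0.11, adjusted p = 2.88e-10).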

How the data were processed

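RNA was sequenced from 11 libraries of mouse embryos in 4 groups, from 1 ng of total RNA with a stranded SMART-seq kit, per the labels' protocols. The values are TPM per gene as deposited by the authors, without counts, and each library sums to 1000000. The submitters' processing notes name fastp, Bowtie2, STAR 2.7.4a, featureCounts and the build mm10. The annotation and strand setting are not given in the sources used here.

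The expression table was matched to GENCODE M21 by symbol (47096 of 49585 genes), and 186 entries shared a symbol with another. Whole reads were recovered from TPM times exon length within 0.01 of a whole number for 85.1% to 86.7% of the values, and served for depth alone. At 400 bases, 3 reads correspond to 0.256 to 1.98 TPM by library.

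Genes at 1 TPM or more in 2 or more libraries entered limma 3.58.1 in R 4.3.3 (lmFit, contrasts.fit, eBayes with trend) on log2(TPM + 1), in 1 model of the 4 group means, with Benjamini-Hochberg adjustment and a threshold of 0.05. The code was tested on simulated data. Tables were made with python 3.11.15, pandas 2.3.3 and numpy 2.4.6. Means carry the SD over libraries.

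The genes described and the lists were chosen with earlier results of these data known. Named were genes that passed between ROSI and ICSI or the 3 smallest p-values per direction, up to 6 per direction with the largest stage difference, the 3 most abundant genes per type, Hist1h2aa, Hist1h2ba, every gene of Hist2 to Hist4, and up to 4 genes per list of related genes.

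Equal replicate numbers were not taken to pair the libraries: over 15 same-numbered pairs the correlation of deviations ran from -0.04 to 0.33. The 2 over 0.1 were the 2 pairs of ROSI with ICSI zygotes (0.33 and 0.22), fewer than the 3 pairs required here to call samples paired. Alternatives were pseudocounts of 0.1 and 5, no filter or one of 5 TPM, median-ratio scaling, protein-coding TPM alone, no trend, a replicate block, the groups fitted alone and each library left out.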

Additional observations from a re-analysis of the deposited data

Results flagged for a closer look

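Hist1h2bj, an abundant H2B gene, had a ROSI minus ICSI difference above 0 in zygotes and below 0 in 2-cell embryos. In zygotes it measured 602 and 689 TPM in the ROSI and 596, 518 and 563 in the ICSI zygotes, all ROSI above all ICSI libraries, a log2 difference of 0.21 (0.206). In 2-cell embryos it measured 925, 839 and 894 TPM in the ROSI and 1057, 1056 and 949 in the ICSI 2-cell embryos, all ROSI below all ICSI libraries, a difference of -0.20 (-0.203). In limma the difference of the changes was -0.41 (SE 0.14, adjusted p = 0.213) and did not pass. It shares 59.4% of its words with other genes, so reads of its near copies may be among its own.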

How the results depend on the processing

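The rise with stage kept its direction in the settings tried, with 46 to 49 genes higher after ICSI and 41 to 45 after ROSI when a library was left out. Of the 21385 to 21752 genes tested then, 13779 to 15128 and 13131 to 15179 were called in both directions. The 2 genes lower in ROSI 2-cell embryos became 1 with a pseudocount of 0.1 or no filter, 5 with a pseudocount of 5, 8 with median-ratio scaling, 4 with protein-coding TPM alone, 0 with the groups fitted alone and 0 to 4 without 1 library (0 without ICSI 2-cell library 1 or 2, 4 without ICSI zygote library 1). Over all genes, calls in both directions moved too, from 1082 higher and 1005 lower of 21938. With a pseudocount of 0.1 or 5 they were 1531 and 2474 of 21938, and with no filter 1366 of 41516. Median-ratio scaling gave 3433 of 21646, protein-coding TPM alone 3560 of 15276 and the groups fitted alone 597 of 19509. They were 1102 of 21671 and 1081 of 21615 without ICSI 2-cell library 1 and 2, and 1814 of 21666 without ICSI zygote library 1. So these counts are not read as an excess. With protein-coding TPM alone 1 gene was higher in ROSI zygotes, 0 genes fell after ICSI and 1 after ROSI. Of the 15276 genes tested there, 130, 11416 and 11607 were called in both directions in these 3 comparisons. In 2-cell embryos 1 lay above without overlap on that scale. In TPM as deposited, 0 to 3 lay above and 25 to 33 below in 2-cell embryos without 1 library. Groups without overlap stay apart when a library is left out, so that range does not measure how firm the counts are. In the difference of changes, 2 were lower with either scaling. Over all genes, median-ratio scaling called 347 of 21646 there in both directions, and protein-coding TPM alone 627 of 15276. The median stage difference was 1.26 with a pseudocount of 5 and 2.42 with protein-coding TPM alone after ICSI (1.75 to 1.90 without 1 library), and 2.26 with a pseudocount of 0.1, 0.94 with 5 and 2.47 with protein-coding TPM alone after ROSI (1.32 to 1.81). The log2 ratio of all sums between ROSI and ICSI was 0.0845 and 0.0968 in zygotes with median-ratio scaling and protein-coding TPM alone, and -0.39 in 2-cell embryos with median-ratio scaling. With median-ratio scaling it was also -0.39 for H2A and -0.33 for H2B in 2-cell embryos, where protein-coding TPM alone gave -0.18 for H2B, and the stage ratios were 1.15 (all), 1.60 (H2A) and 0.96 (H2B) after ICSI and 0.68 (all) after ROSI. With protein-coding TPM alone the stage ratios were 1.57 (all), 2.02 (H2A), 1.37 (H2B), 1.75 (H3) and 1.35 (H4) after ICSI, and 1.23, 2.01, 0.94, 1.31 and 1.03 after ROSI. Without the most abundant gene they were 1.13 (all), 1.80 (H3) and 1.20 (H4) after ICSI and 0.83, 1.51 and 0.85 after ROSI, and the ROSI to ICSI ratios were -0.38 (H2A) and -0.27 (H2B) in 2-cell embryos and -0.0676 (H3) in zygotes. The H4 ratio in zygotes, -0.0591, turned to 0.0229, 0.0364 and 0.149 with median-ratio scaling, protein-coding TPM alone and without Hist1h4c, and the Hist3 stage ratio after ROSI turned to -0.23 without Hist3h2ba. The causes were not tested. The median of all genes tested between ROSI and ICSI 2-cell embryos was 0.04, and -0.03 with median-ratio scaling, which tested 21646 genes. After ICSI the median stage difference of all genes was 0.00, and 0.20 with protein-coding TPM alone. That setting tested 15276 genes, so the medians are over different sets of genes. Its limma fit leaves out Hist1h2aj and Hist1h2al, which are annotated as pseudogenes.

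With the replicate number as a replicate block, genes called between ROSI and ICSI zygotes went from 25 higher and 7 lower to 4 in all over all genes. They stayed at 0 among core histone genes. In this setting 3 core histone genes were lower in ROSI 2-cell embryos, and 49 and 45 rose with stage after ICSI and ROSI. Of all 21938 genes tested, 1737, 14848 and 14616 were called in both directions in these comparisons. The call of Hist1h2be ended (adjusted p = 0.0703 by limma). Depth limits low genes most in ICSI 2-cell library 1, where 3 reads of a 400-base gene are 1.98 TPM.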

Other observations

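Grouped by their annotated 3′ end, the tested genes whose stem-loop lay within 100 bases of the end numbered 20, and their median log2 stage difference was 2.19 after ICSI and 2.49 after ROSI. For the 13 tested genes annotated over 300 bases past the loop it was 1.37 and 0.91. The latter had a median level of 61.6 TPM in ICSI zygotes, against 8.15 TPM for the former, so the annotated end and the zygote level moved together and cannot be told apart here. Some of these genes entered the tests through the 2-cell embryos, which favours a rise. They are Hist1h2ap, Hist1h4b and Hist1h4m in the former group, and Hist1h2be and Hist1h4j in the latter.

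Among H2A genes with a matched promoter that were tested, the 6 with ATTTGCAT had a median stage difference of 1.86 after ICSI, from -0.60 to 5.25, and the 8 without it 3.93, from 1.72 to 5.48. Among H2B genes the order was the other way, 2.87 for the 5 with ATTTGCAT and 1.47 for the 9 without it. Some H2A and H2B genes of these groups hold the same ATTTGCAT site, as Hist1h2ae and Hist1h2bg do. Hist1h2ae with the motif, and Hist2h2ab, Hist1h2be and Hist1h2bq without it, entered the tests through the 2-cell embryos, which favours a rise. The medians are values of few genes, and many of these genes share reads, so they are given without a test.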
